A study of Saccharomyces cerevisiae with 6 samples.

Results

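The nucleolar ribosome assembly factors described here are the open reading frames whose standard name in the R64 annotation of Saccharomyces cerevisiae is UTP, NOP, RRP, NOC, NOG, NSA or RLP followed by a number. The rule takes 62 of the 6696 open reading frames in the counts: 18 UTP, 17 NOP, 18 RRP, 3 NOC, 2 NOG, 2 NSA and 2 RLP genes. By known role 27 of them act on the small subunit and 21 on the large subunit. A further 4 are proteins of small nucleolar ribonucleoproteins (snoRNPs), 7 are exosome subunits, 2 act on both subunits and 1 (NOP13) was left without a role. RNA was sequenced from 6 libraries in 4 groups: the deletion strain BY4741 cyc8[delta]::kanMX4 in mannose (1 library) and in glucose (2 libraries), and wild-type BY4741 in mannose (1 library) and in glucose (2 libraries). Cyc8 is a corepressor that acts with Tup1, and the deletion replaces its gene with the kanMX4 cassette. Every culture had 3 h in rich medium with 1% yeast extract and 2% peptone, and with 2% mannose (YPMan) or 2% glucose (YPGlc) as the sugar. Whether replicates came from separate cultures, and how many clones of the deletion were used, is not in the labels, so p-values measure only the spread between these libraries, which may be technical.

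Ribosome assembly starts in the nucleolus, where RNA polymerase I makes a long precursor RNA. The UTP proteins and their partners gather on it as the small subunit processome, with the UTP-A complex binding first, followed by UTP-B, UTP-C and the U3 snoRNP. The precursor is then cut, the exosome trims and degrades spacer RNA, and the large subunit precursor matures with the NOC, NOG, NSA and RLP proteins and many NOP and RRP proteins. In yeast most of these genes are known to be transcribed together in step with growth, and 2 promoter elements, PAC and RRPE, are known to stand in front of many of them. The repressors Dot6 and Tod6 bind PAC, and Stb3 binds RRPE.

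Of the 62 promoters 37 (59.7%) held the PAC letters CGATGAG on either strand, against 421 of 6001 promoters of the genome (7.02%). The RRPE letters AAAAATTT were in 47 (75.8%), against 849 (14.1%) of all. Both stood in 29 members (46.8%), against 190 promoters (3.17%), and neither in 7 members (11.3%), against 82.0% of all promoters. A promoter here is the stretch from 250 bases before the start codon to 50 bases after it, and the letters of both motifs never overlapped. The 7 promoters without a match were those of NOC3, NOP9, RRP15, RRP45, RRP46, RRP9 and UTP22. Among UTP genes 14 of 18 had PAC and 15 had RRPE, among NOC, NOG, NSA and RLP genes 5 and 8 of 9, and among exosome genes 2 and 3 of 7. The 5 promoters below were picked after the values were seen, from members with large falls or with rises in mannose in the deletion. They are not the largest changes in order. UTP6, the most negative member there, is not shown, and its promoter had a PAC match and an RRPE match. Capitals mark PAC and RRPE matches. The sequences are from the RefSeq R64 genome and run 5′ to 3′ on the strand of the gene. UTP9 is at chrVIII:491681-491980 on the plus strand, UTP22 at chrVII:662108-662407 plus, RRP1 at chrIV:618257-618556 minus, NOP2 at chrXIV:510290-510589 plus and RRP15 at chrXVI:818073-818372 plus.
UTP9: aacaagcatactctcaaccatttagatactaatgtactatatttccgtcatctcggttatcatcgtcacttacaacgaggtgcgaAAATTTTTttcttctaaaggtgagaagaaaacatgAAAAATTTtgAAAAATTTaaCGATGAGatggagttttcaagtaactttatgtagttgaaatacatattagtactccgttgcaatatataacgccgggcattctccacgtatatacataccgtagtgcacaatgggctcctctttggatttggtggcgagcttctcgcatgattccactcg
UTP22: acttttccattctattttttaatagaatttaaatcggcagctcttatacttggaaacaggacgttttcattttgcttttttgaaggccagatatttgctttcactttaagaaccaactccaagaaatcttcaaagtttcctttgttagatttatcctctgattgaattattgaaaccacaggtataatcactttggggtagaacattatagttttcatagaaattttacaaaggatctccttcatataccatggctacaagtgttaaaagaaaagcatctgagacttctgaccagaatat
RRP1: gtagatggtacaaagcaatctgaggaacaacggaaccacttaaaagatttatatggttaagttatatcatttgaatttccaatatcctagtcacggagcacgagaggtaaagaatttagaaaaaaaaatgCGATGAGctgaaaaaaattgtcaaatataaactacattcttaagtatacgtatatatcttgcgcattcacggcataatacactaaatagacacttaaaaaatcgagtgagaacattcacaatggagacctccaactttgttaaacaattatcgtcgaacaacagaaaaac
NOP2: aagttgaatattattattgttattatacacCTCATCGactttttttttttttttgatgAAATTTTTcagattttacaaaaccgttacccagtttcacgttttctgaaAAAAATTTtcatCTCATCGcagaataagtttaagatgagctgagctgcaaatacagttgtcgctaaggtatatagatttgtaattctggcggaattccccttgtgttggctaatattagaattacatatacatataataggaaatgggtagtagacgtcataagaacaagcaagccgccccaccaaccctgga
RRP15: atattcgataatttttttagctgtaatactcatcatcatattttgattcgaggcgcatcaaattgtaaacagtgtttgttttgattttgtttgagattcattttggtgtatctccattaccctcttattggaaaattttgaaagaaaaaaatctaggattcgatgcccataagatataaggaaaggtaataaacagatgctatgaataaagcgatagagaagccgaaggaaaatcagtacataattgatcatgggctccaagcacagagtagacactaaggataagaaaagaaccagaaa
UTP9 had 3 RRPE matches and 1 PAC match, NOP2 had 2 of each, RRP1 had 1 PAC match, and UTP22 and RRP15 had none. The matches clustered upstream of the start codon. The 39 PAC matches began a median of 120 bases before it and the 66 RRPE matches a median of 137.5 bases before it. A match describes these letters and is not a binding site.

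**Figure D1:**
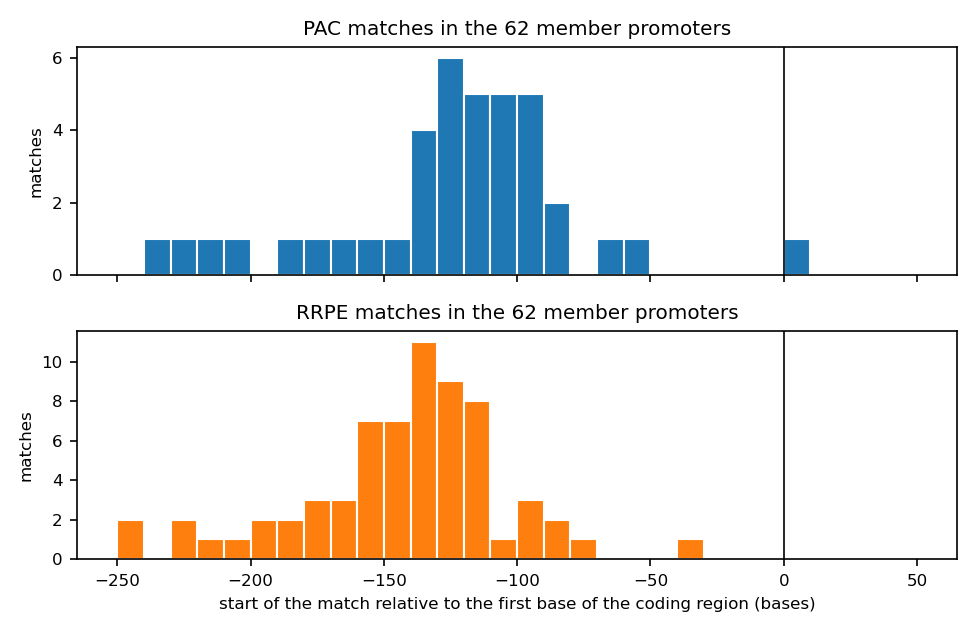
Number of PAC (top) and RRPE (bottom) matches in the 62 member promoters by the start of the match in bases relative to the first base of the coding region, in bins of 10 bases. Most matches of both lie before the start codon, with medians of 120 bases for PAC and 137.5 bases for RRPE, and 1 PAC match, that of UTP4, lies inside the coding region.

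Library totals ran from 26195734 counts in the deletion in mannose to 44084216, and every member had at least 109 counts in every library. Levels are given as CPM, that is, the counts of a gene scaled to the total of its library, adjusted by TMM factors. Changes are log2 ratios ± SE (standard error) fitted over the 6 libraries together. A gene counts as called where its p from the quasi-likelihood test of edgeR, adjusted over 6146 genes by Benjamini and Hochberg's method, was under 0.05. Since only 1 library was made per strain in mannose, levels there carry no spread, and tests borrow the spread of the glucose libraries. CYC8 stood at 7.92 CPM in the deletion in mannose and at 2.17 and 2.92 CPM in the deletion in glucose, against 197 CPM in wild type in mannose and 199.7 and 207 CPM in wild type in glucose. Reading frames of the mitochondrial genome took 2.65% of the counts in the deletion in mannose and 0.744% and 0.857% in the deletion in glucose, against 0.251% in wild type in mannose and 0.627% and 0.557% in wild type in glucose. The part of this shift in the results on mannose was not tested.

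Together the 62 genes took 0.323% of the counts in the deletion in mannose, 0.577% and 0.604% in the deletion in glucose, 0.731% in wild type in mannose, and 0.801% and 0.791% in wild type in glucose. The deletion in mannose was thus the lowest library and both wild-type glucose libraries were the highest. Such shares cannot tell fewer transcripts of these genes per cell apart from more RNA of other genes. By member, the deletion in mannose was the lowest of the 6 libraries for 46 of 62 genes, against 41.5% of all genes tested.

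**Figure D2:**
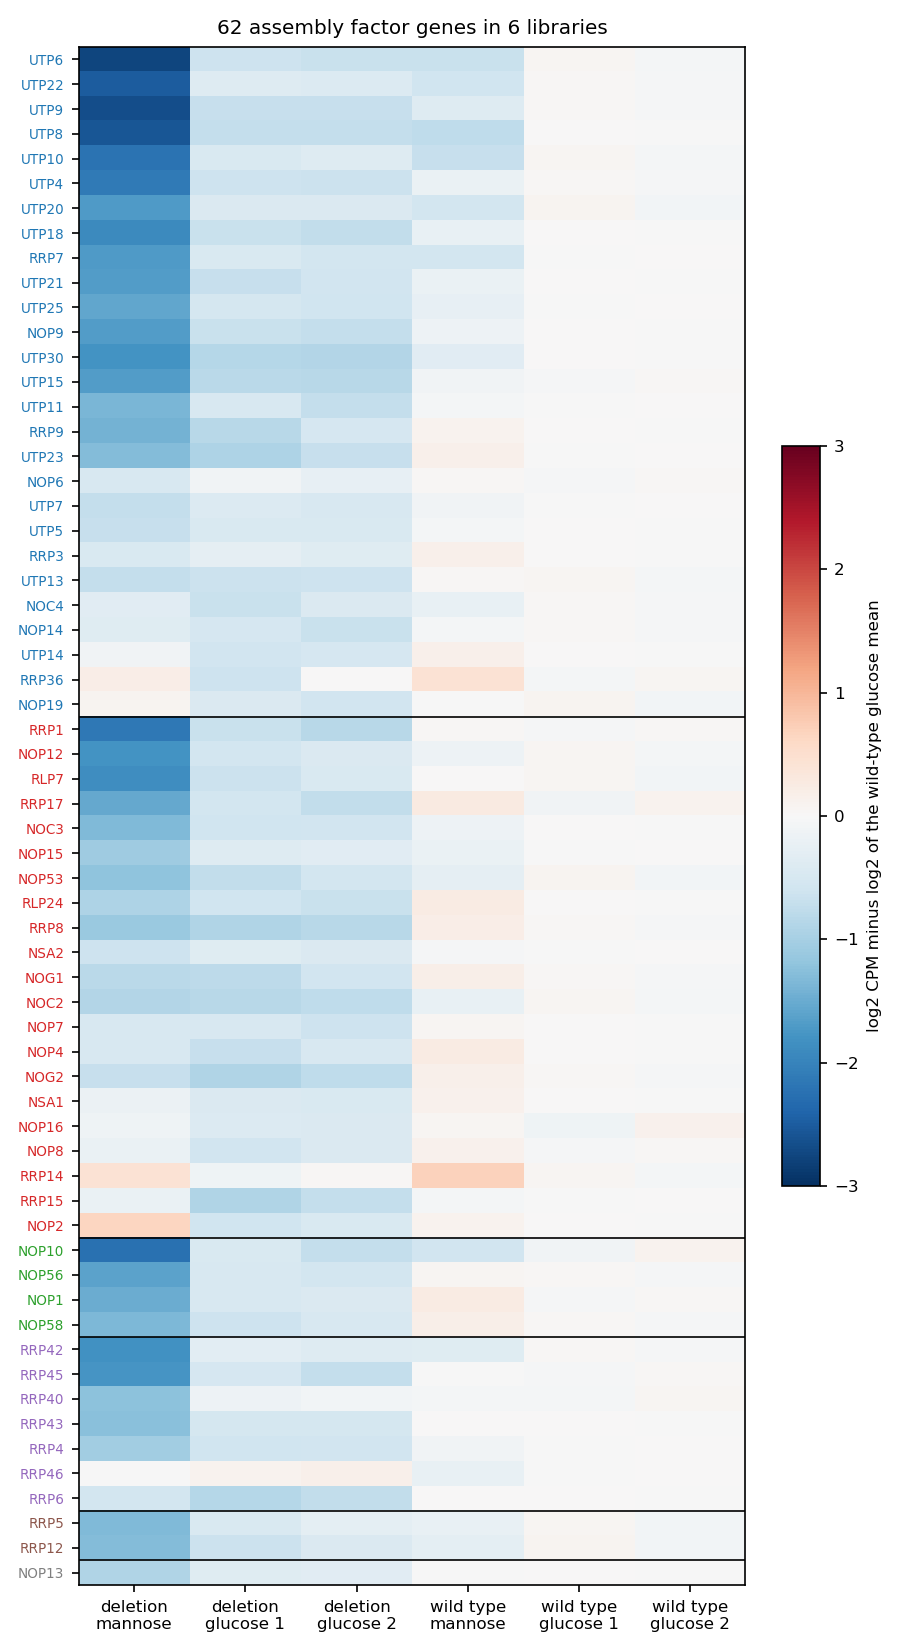
Each row is 1 of the 62 genes and each column 1 library, and colour is log2 CPM minus log2 of the wild-type glucose mean, on a scale of −3 (blue) to 3 (red). Gene names are coloured by role: small subunit (blue), large subunit (red), snoRNP (green), exosome (purple), both subunits (brown) and unassigned (grey). The deletion in mannose column holds the darkest blue, in UTP6, UTP22, UTP9 and UTP8, and is red for NOP2 and RRP14.

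Levels per length differed widely between members. In wild type in glucose the highest was NOP56, at 393 ± 17.1 CPM per kb of coding sequence (SD, n = 2), followed by the other snoRNP genes NOP10, NOP1 and NOP58 at 331, 294 and 227 CPM per kb. NOP10 varied most of these between replicates (SD 32.4, n = 2), so its order against NOP1 was not beyond the spread. NOP7, NOG1 and RLP24 of the large subunit came next, at 199, 182 and 178 CPM per kb. The lowest was NOP8, an early large subunit factor, at 11.7 ± 0.494 CPM per kb (SD, n = 2). The 6 UTP-A genes, whose proteins form 1 complex, lay close together, from 46.5 to 67.5 CPM per kb in wild-type glucose replicate 2.

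Without CYC8 in glucose, nearly the whole set stood lower. Of 62 members 58 fell and 0 rose, while 37.8% of all genes tested fell and 30.1% rose. The median change of the members was −0.55, against −0.08 over all genes tested. With DESeq2 0 members rose, as at an unadjusted p under 0.05 in edgeR. With trends on GC content and coding length taken out 1 member rose and 57 fell, and 2065 of 5828 genes tested rose and 1923 fell. With DESeq2 size factors in edgeR, or only the libraries compared, 1 member rose as well. The calls rest on close replicates, and with an assumed coefficient of variation of 0.2 only 9 members fell. With that setting 538 of all 6146 genes tested fell and 953 rose. The falls were modest: 0 members fell 2-fold or more, a size that 4.8% of all genes tested passed. Both deletion libraries lay below both wild-type libraries for 59 members (46.8% of all genes) and above both for 1 (36.6% of all genes). All 18 UTP genes fell (median −0.63), and so did all 9 NOC, NOG, NSA and RLP genes (median −0.58). The 4 genes not called were RRP14 at −0.04 ± 0.09, RRP36 at −0.26 ± 0.12, and the exosome subunit genes RRP40 at −0.11 ± 0.09 and RRP46 at 0.13 ± 0.09. The medians of members with both motifs, with one of them and with neither were −0.55, −0.52 and −0.60.

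The most negative changes in glucose were those of UTP30, RRP8, NOG2 and UTP15. UTP30, for a small subunit processome protein, had 10.4 and 10.2 CPM in the deletion, against 19.1 and 18.7 CPM in wild type. The pairs lay far apart, and UTP30 was 1.83-fold lower (−0.87 ± 0.11, edgeR adjusted p = 1.45e-11). RRP8, for a methyltransferase of the large subunit rRNA, had 25.8 and 27.2 CPM in the deletion, against 49.3 and 47.0 CPM in wild type. Here too the pairs did not overlap (−0.86 ± 0.08, edgeR adjusted p = 7.23e-16). UTP15, for a UTP-A subunit, had 56.7 and 55.8 CPM in the deletion, against 97.1 and 102 CPM in wild type (−0.82 ± 0.08, edgeR adjusted p = 5.04e-17). The spread within each of these pairs was small beside the gap between them.

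**Figure D3:**
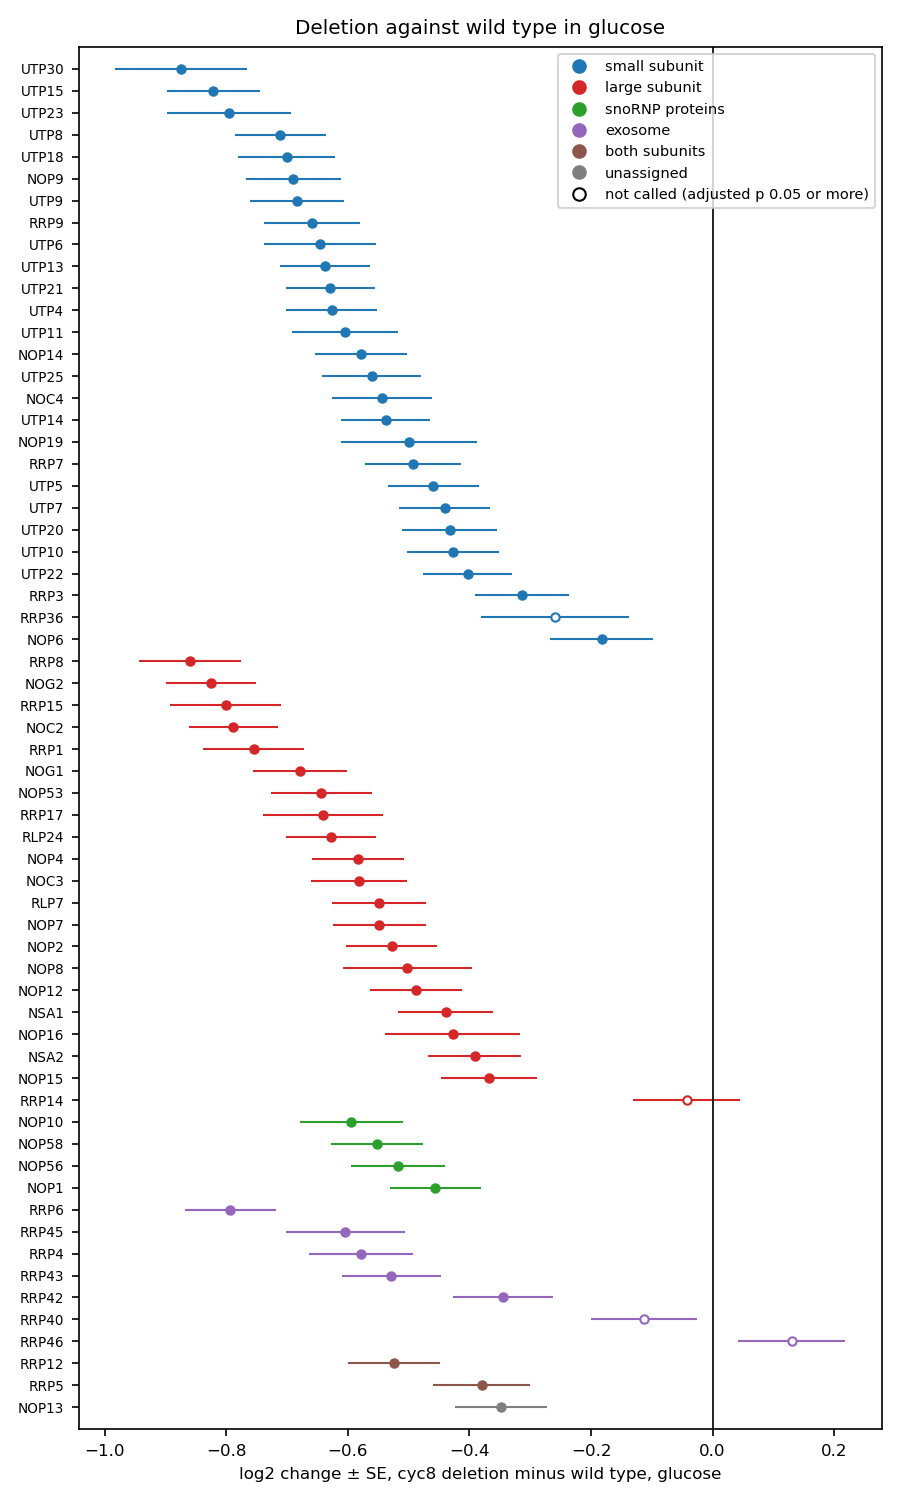
log2 change ± SE of each of the 62 genes in the deletion minus wild type in glucose, grouped and coloured by role. Filled points passed an adjusted p under 0.05, and the 4 open points, RRP36, RRP14, RRP40 and RRP46, did not. All but RRP46 lie left of 0, and the groups overlap.

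In wild type, 3 h in mannose changed fewer members, and in both directions. Of 62 members 14 fell and 6 rose, while 16.9% of all genes tested fell and 20.5% rose. The median was −0.05, against 0.02 over all genes tested. Of the UTP genes 8 of 18 fell and 0 rose, with a median of −0.21, and with trends on GC content and coding length taken out 4 fell (median −0.15). Among the 9 NOC, NOG, NSA and RLP genes RLP24 rose (0.26 ± 0.09), NOC2 fell (−0.23 ± 0.09), and the median was 0.00. With these trends taken out NOC2 stood at −0.01, not called, RLP7 was called higher (0.24), and the class had 2 rises and 0 falls. The order of these 3 libraries was not counted over all genes, so the next counts have no background and describe the members only. The wild-type mannose library lay below both wild-type glucose libraries for 33 members, above both for 21 and between them for 8. These calls rested on the glucose libraries: 8 fell and 1 rose without wild-type glucose replicate 1, 11 fell and 3 rose without replicate 2, and 22 fell and 7 rose without either deletion glucose replicate. Over all members 8 fell and 8 rose with the GC and length trends taken out, and 9 fell and 3 rose with DESeq2. Over all genes 920 of 5828 fell and 1079 rose with the trends taken out, and 606 of 6603 fell and 913 rose with DESeq2. With the trends taken out the members thus showed no excess of falls over rises.

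UTP8 and UTP10 of UTP-A and UTP6 of UTP-B had 3 of the 4 largest changes in wild type, all falls. UTP8 had 67.9 CPM in mannose, against 117 and 113 CPM in glucose, a 1.69-fold lower level (−0.76 ± 0.09, edgeR adjusted p = 8.05e-11). UTP10 had 232 CPM in mannose, against 389 and 359 CPM in glucose (−0.69 ± 0.09, edgeR adjusted p = 2.71e-09). UTP6 had 20.5 CPM in mannose, against 34.0 and 31.1 CPM in glucose (−0.67 ± 0.12, edgeR adjusted p = 1.22e-06). In each of the 3 the mannose library lay below both glucose libraries. RRP14, for a nucleolar protein of ribosome assembly, went the other way. It had 44.8 CPM in mannose, against 28.7 and 26.6 CPM in glucose, a 1.62-fold higher level (0.69 ± 0.10, edgeR adjusted p = 1.89e-08). With trends on GC content and coding length taken out, UTP8, UTP10 and RRP14 were still called (−0.41, −0.32 and 0.73) and UTP6 was not (−0.15).

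In the deletion strain mannose changed most of the set, and by more. Of 62 members 42 fell and 10 rose, while 39.7% of all genes tested fell and 37.6% rose. With the GC and length trends taken out 39 members fell and 15 rose, and 2444 of 5828 genes tested fell and 2129 rose. With upper-quartile factors in place of TMM, 47 members fell and 3 rose, and 3051 of all 6146 genes tested fell and 1822 rose. With an assumed coefficient of variation of 0.2, 24 members fell and 1 rose, and 1116 of all genes tested fell and 1380 rose. The median of the members was −0.71, against −0.04 over all genes tested. A fall of 2-fold or more was seen in 19 members (14.9% of all genes tested) and a rise of that size in 1, NOP2 (18.7% of all genes tested). Falls were seen in 16 of 18 UTP genes (median −1.03), 4 of 4 snoRNP genes (median −1.06), both genes that serve both subunits (median −0.86) and 5 of 7 exosome genes (median −0.72). Among the 9 NOC, NOG, NSA and RLP genes 4 fell and 1 rose (median −0.12). The 10 that rose were NOP2, RRP15, NOP19, RRP14, RRP36, UTP14, NOP8, NSA1, RRP6 and NOP14. Of these NOP14 and RRP6 turned to −0.04 and −0.02, not called, with upper-quartile factors.

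In mannose, the deletion stood lower than wild type in most members. Of 62 members 53 fell and 1 rose, while 41.1% of all genes tested fell and 38.3% rose. With an assumed coefficient of variation of 0.2, 35 members fell and 0 rose, and 1326 of all 6146 genes tested fell and 1494 rose. With upper-quartile factors 59 members fell and 0 rose, and 3141 of all 6146 genes tested fell and 1852 rose. The median was −1.15, against −0.07 over all genes tested, and 33 members fell 2-fold or more (20.8% of all genes tested). All 18 UTP genes fell (median −1.48), as did 8 of the 9 NOC, NOG, NSA and RLP genes (median −0.83). NOP2 was the member that rose (0.54 ± 0.11). This comparison sets 1 library against 1, and it shares the deletion mannose library with the comparison above.

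The change in mannose was tested directly for a difference between the strains. It was lower in the deletion than in wild type for 38 members and higher for 5, while 34.4% of all genes tested were called lower and 29.7% higher. With an assumed coefficient of variation of 0.2 the difference was lower for 264 of all 6146 genes tested and higher for 554. Of the members 4 were then lower and 0 higher. Higher calls numbered 3 without wild-type glucose replicate 1. With upper-quartile factors 47 members were lower and 2 higher, and 2820 of all 6146 genes tested were lower and 1387 higher. The median difference, deletion minus wild type, was −0.57, against −0.08 over all genes tested. The 5 higher members were NOP2, RRP15, NOP19, NOC4 and UTP14, of which UTP14 was not called with the GC and length trends taken out (0.14). The largest differences were those of UTP9 (−1.60 ± 0.15), UTP22 (−1.50 ± 0.13), UTP6 (−1.45 ± 0.20) and RRP1 (−1.44 ± 0.16).

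**Figure D4:**
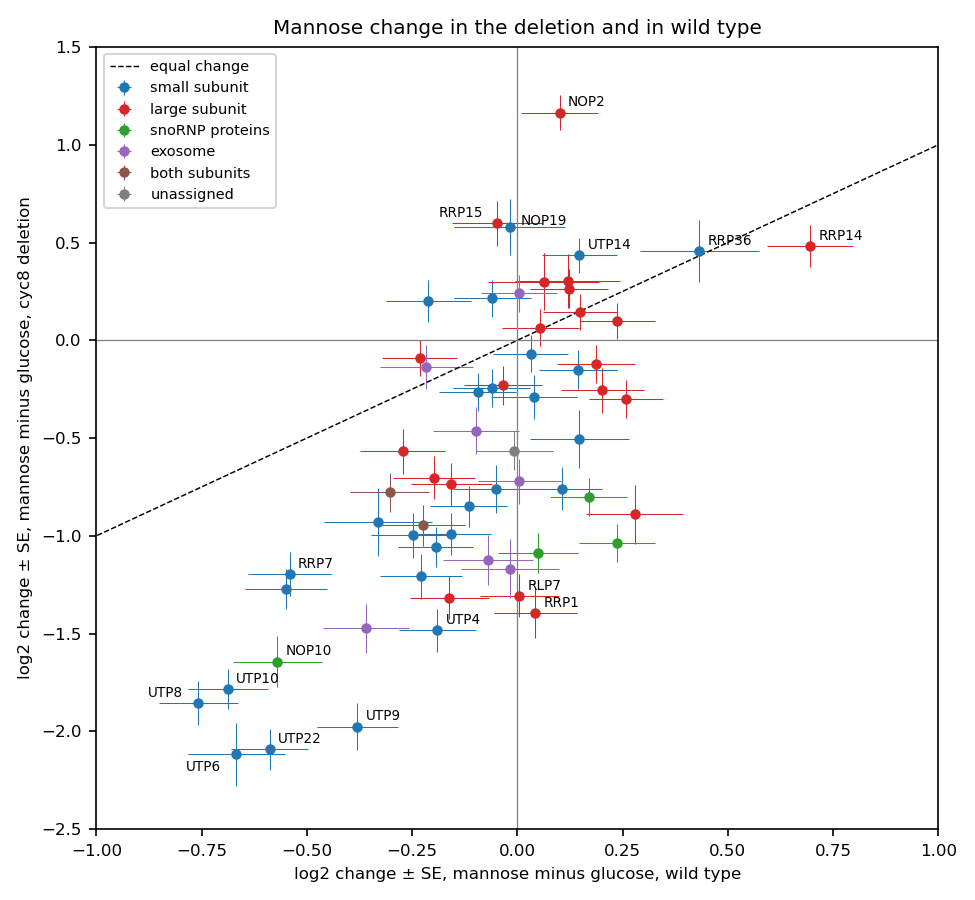
log2 change ± SE in mannose minus glucose of the 62 genes, in the deletion (vertical axis) and in wild type (horizontal axis), coloured by role, with the line of equal change dashed. UTP6, UTP22, UTP9, UTP8 and UTP10 lie at the lower left, lower in mannose in both strains and further down in the deletion, and NOP2 lies at the top, at 1.16 in the deletion and 0.10 in wild type.

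The small subunit genes are taken first, in the order in which their complexes bind. UTP-A proteins bind the nascent precursor RNA, and all 6 UTP-A genes fell in mannose in the deletion (median −1.63), 4 of them 2-fold or more. Of all genes tested 39.7% fell there, and 14.9% fell 2-fold or more. With the GC and length trends taken out the UTP-A median was −1.21. UTP9 (YHR196W, chrVIII:491931-493658), whose promoter is shown above, had 13.1 CPM in the deletion in mannose and 51.4 CPM in both deletion glucose libraries, against 63.5 CPM in wild type in mannose and 84.5 and 80.8 CPM in wild type in glucose. The deletion in mannose was far below the other 5 libraries. UTP9 was 3.93-fold lower in mannose in the deletion (−1.98 ± 0.12, edgeR adjusted p = 2.43e-27), and 4.86-fold lower in the deletion than in wild type in mannose (−2.28 ± 0.13, edgeR adjusted p = 2.08e-29). With the GC and length trends taken out these were −1.20 and −1.75, and its change in wild type turned from −0.38 to 0.04, not called.

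UTP8 had 19.4 CPM in the deletion in mannose and 70.2 and 70.0 CPM in the deletion in glucose. The deletion in glucose thus lay near the 67.9 CPM of wild type in mannose. Its mannose change in the deletion was −1.86 ± 0.11 (edgeR adjusted p = 9.36e-28). UTP10, which encodes a HEAT-repeat protein, had 80.7 CPM in the deletion in mannose and 272 and 284 CPM in the deletion in glucose (−1.78 ± 0.10, edgeR adjusted p = 6.12e-29). UTP4 had 25.9 CPM in the deletion in mannose and 73.2 and 71.8 CPM in the deletion in glucose, against 98.1 CPM in wild type in mannose and 116 and 108 CPM in wild type in glucose. Its order of groups was that of UTP9, with a fall of 1.92 ± 0.12 on the log2 scale in the deletion against wild type in mannose (edgeR adjusted p = 1.55e-27). UTP15 and UTP5 moved less in mannose in the deletion, with falls of −0.85 ± 0.10 and −0.24 ± 0.10. In the wild-type glucose libraries the highest UTP-A level per kb was 1.52 and 1.45 times the lowest. This spread was 3.90-fold in the deletion in mannose. It was 1.72-fold and 1.80-fold in the deletion in glucose and 1.88-fold in wild type in mannose. The widening was not particular to UTP-A. From the wild-type glucose libraries to the deletion in mannose, the UTP-B spread went from 2.13-fold and 2.16-fold to 8.92-fold. That of the exosome genes went from 2.20-fold and 2.05-fold to 4.81-fold. That of the snoRNP genes changed little, from 1.75-fold and 1.72-fold to 1.84-fold.

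Of the 4 UTP-B genes in the set UTP6, UTP18 and UTP21 fell in mannose in the deletion (39.7% of all genes tested). UTP13 was not called (−0.07 ± 0.09). UTP6 (YDR449C, chrIV:1357580-1358902) had 4.79 CPM in the deletion in mannose and 21.1 and 20.5 CPM in the deletion in glucose, against 20.5 CPM in wild type in mannose and 34.0 and 31.1 CPM in wild type in glucose. Either deletion or mannose alone left it near 20.5 CPM, and the library with both was the lowest. It was 4.34-fold lower in mannose in the deletion (−2.12 ± 0.16, edgeR adjusted p = 9.94e-22), the most negative member there, and at −1.17 with the GC and length trends taken out. UTP6 has the lowest GC content of the members (33.5%). UTP18 and UTP21 stood at −1.21 ± 0.12 and −1.06 ± 0.10.

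The UTP-C complex is represented by UTP22 and RRP7, and both fell in mannose in the deletion (39.7% of all genes tested). UTP22 (YGR090W, chrVII:662358-666071), with neither motif in its promoter, had 45.3 CPM in the deletion in mannose and 194 and 192 CPM in the deletion in glucose, against 169.6 CPM in wild type in mannose and 262 and 248 CPM in wild type in glucose. It was 4.26-fold lower in mannose in the deletion (−2.09 ± 0.10, edgeR adjusted p = 2.50e-33) and fell in wild type as well (−0.59 ± 0.09). These became −1.83 and −0.32 with the GC and length trends taken out, and both were still called. RRP7 stood at −1.20 ± 0.11 in the deletion and −0.54 ± 0.10 in wild type.

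Among the other UTP genes, UTP20, for a large HEAT-repeat protein, had the highest mean level per kb of the small subunit members in wild type in glucose. It had 188 CPM in the deletion in mannose and 454 and 455 CPM in the deletion in glucose, against 419 CPM in wild type in mannose and 649 and 578 CPM in wild type in glucose. It fell in mannose in the deletion (−1.27 ± 0.10, edgeR adjusted p = 3.20e-20) and in wild type (−0.55 ± 0.10). With the GC and length trends taken out these were −1.08 and −0.15, and the second was not called. UTP30, one of the members with few counts, fell in mannose in the deletion, with 5.41 CPM in mannose and 10.4 and 10.2 CPM in glucose (−0.93 ± 0.17). UTP14, for the activator of the helicase Dhr1, was the UTP gene that rose, with 120.1 CPM in the deletion in mannose and 86.4 and 91.2 CPM in the deletion in glucose (0.44 ± 0.09, edgeR adjusted p = 9.99e-06). Its deletion mannose library lay below both wild-type glucose libraries, at 130.4 and 127 CPM.

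Among small subunit members with other names both directions were seen. Of these 9 genes 4 fell and 3 rose in mannose in the deletion (median −0.15), which is near the 39.7% and 37.6% of all genes tested. NOP19 and RRP36 (processome proteins) and NOP14 rose, and RRP7, RRP9, NOP9 and NOP6 fell. NOC4, whose protein pairs with Nop14 on the small subunit, had 43.9 CPM in the deletion in mannose and 34.8 and 41.5 CPM in the deletion in glucose, against 48.1 CPM in wild type in mannose and 56.9 and 54.6 CPM in wild type in glucose. It fell in the deletion in glucose (−0.54 ± 0.08, edgeR adjusted p = 1.14e-08), stood at 0.20 ± 0.11 in mannose in the deletion, not called, and at −0.13 ± 0.12 between the strains in mannose, not called. RRP36, the lowest of the small subunit members per kb in wild type in glucose, had 13.8 CPM in the deletion in mannose and 7.82 and 12.0 CPM in the deletion in glucose, against 16.2 CPM in wild type in mannose and 11.4 and 12.5 CPM in wild type in glucose. Its deletion glucose replicates differed widely and overlapped wild type. It rose in mannose in the deletion (0.46 ± 0.16, edgeR adjusted p = 0.00672) and in wild type (0.43 ± 0.14, edgeR adjusted p = 0.0107).

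The NOC, NOG, NSA and RLP genes are those the name rule sets against UTP. NOG1 and NOG2 encode GTPases of large subunit assembly. NOG1 had 203 CPM in the deletion in mannose and 204 and 238 CPM in the deletion in glucose, against 403 CPM in wild type in mannose and 362 and 345 CPM in wild type in glucose. NOG2 had 97.5 CPM in the deletion in mannose and 83.8 and 92.7 CPM in the deletion in glucose, against 174 CPM in wild type in mannose and 159 and 154 CPM in wild type in glucose. For both genes the strains were separate in either sugar, with changes in glucose of −0.68 ± 0.08 and −0.83 ± 0.07 (edgeR adjusted p = 5.56e-13 and 8.13e-18) and in mannose of −0.99 ± 0.11 and −0.83 ± 0.11. Neither was called for mannose in the deletion (−0.12 ± 0.10 and 0.14 ± 0.09), though NOG1 was called there with the GC and length trends taken out (−0.36). NOG2 is the 1 member with an intron, and SNR191, a snoRNA gene on the same strand, lies within it.

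NOC2 and NOC3 encode partners in large subunit assembly. NOC2 had 99.3 CPM in the deletion in mannose and 103 and 108 CPM in the deletion in glucose, against 155 CPM in wild type in mannose and 189 and 176 CPM in wild type in glucose. NOC3 had 27.8 CPM in the deletion in mannose and 45.9 and 46.8 CPM in the deletion in glucose, against 62.2 CPM in wild type in mannose and 69.6 and 69.1 CPM in wild type in glucose. Both fell in the deletion in glucose (−0.79 ± 0.07 and −0.58 ± 0.08, edgeR adjusted p = 4.95e-17 and 2.88e-10), but in the deletion NOC3 fell in mannose (−0.74 ± 0.11, edgeR adjusted p = 2.80e-09) and NOC2 was not called (−0.09 ± 0.09). With the GC and length trends taken out NOC2 turned to 0.30 there and was called.

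NSA1 and NSA2 are large subunit factors with small changes. NSA1 had 58.5 CPM in the deletion in mannose and 49.1 and 48.3 CPM in the deletion in glucose, against 71.8 CPM in wild type in mannose and 66.4 and 65.5 CPM in wild type in glucose. NSA2 had 50.7 CPM in the deletion in mannose and 60.7 and 58.2 CPM in the deletion in glucose, against 76.1 CPM in wild type in mannose and 77.5 and 78.4 CPM in wild type in glucose. All 3 deletion libraries lay below all 3 wild-type libraries for both genes. In mannose in the deletion NSA1 rose (0.26 ± 0.10, edgeR adjusted p = 0.0117) and NSA2 fell (−0.23 ± 0.10, edgeR adjusted p = 0.0306), and in glucose both fell (−0.44 ± 0.08 and −0.39 ± 0.08).

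RLP7 and RLP24 encode relatives of the ribosomal proteins Rpl7 and Rpl24 that sit on the large subunit precursor. RLP7 had 26.1 CPM in the deletion in mannose and 60.1 and 68.8 CPM in the deletion in glucose, against 94.8 CPM in wild type in mannose and 99.1 and 89.9 CPM in wild type in glucose. RLP24 had 56.0 CPM in the deletion in mannose and 70.9 and 67.0 CPM in the deletion in glucose, against 127 CPM in wild type in mannose and 107 and 106 CPM in wild type in glucose. RLP7 had the one large fall of its name class in mannose in the deletion (−1.31 ± 0.11, edgeR adjusted p = 3.46e-19, and −0.69 with the GC and length trends taken out). RLP24 fell there by less (−0.30 ± 0.10, edgeR adjusted p = 0.00392), and stood at 0.02, not called, with the trends taken out. The ribosomal protein genes RPL7A, RPL7B, RPL24A and RPL24B fell in mannose in the deletion by 1.20, 0.98, 1.09 and 0.86 on the log2 scale. Each of these is 1 of a pair of near copies, so reads may be shared within a pair.

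The other large subunit members held both the strongest rise and a deep fall. Of these 13 genes 6 fell and 4 rose in mannose in the deletion (median 0.06), against 39.7% and 37.6% of all genes tested. With the GC and length trends taken out 3 fell and 8 rose (median 0.29), so the balance of falls and rises in this class depends on that step. NOP2 (YNL061W, chrXIV:510540-512396), for a methyltransferase of the large subunit rRNA, had 339.6 CPM in the deletion in mannose and 144 and 159 CPM in the deletion in glucose, against 234 CPM in wild type in mannose and 219 and 218 CPM in wild type in glucose. Its lowest group was the deletion in glucose and its highest library the deletion in mannose. It was 2.24-fold higher in mannose in the deletion (1.16 ± 0.09, edgeR adjusted p = 1.18e-21) and stood at 0.10 ± 0.09, not called, in wild type. NOP2 and RRP15 were outside the rule for full values and were added after their values were seen.

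RRP15 (YPR143W, chrXVI:818323-819075), for a large subunit factor, had 28.3 CPM in the deletion in mannose and 17.5 and 19.9 CPM in the deletion in glucose, against 31.5 CPM in wild type in mannose and 32.1 and 33.1 CPM in wild type in glucose. The deletion in mannose lay near the wild-type libraries and the deletion in glucose well below them. It rose in mannose in the deletion (0.60 ± 0.12, edgeR adjusted p = 2.95e-06). RRP1 (YDR087C, chrIV:617470-618306), another large subunit factor, showed the reverse. It had 12.1 CPM in the deletion in mannose and 33.9 and 30.2 CPM in the deletion in glucose, against 55.6 CPM in wild type in mannose and 52.9 and 55.0 CPM in wild type in glucose. The 3 wild-type libraries were close together and the deletion in mannose far below, 4.58-fold lower than wild type in mannose (−2.19 ± 0.14, edgeR adjusted p = 4.43e-27).

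RRP8 had 22.2 CPM in the deletion in mannose, near its deletion glucose values, against 55.4 CPM in wild type in mannose (−1.32 ± 0.13, edgeR adjusted p = 1.39e-16). RRP14 had 37.5 CPM in the deletion in mannose and 25.3 and 28.3 CPM in the deletion in glucose, and it rose there too (0.48 ± 0.11, edgeR adjusted p = 4.77e-05). RRP14 was thus higher in mannose in either strain, and the difference between the strains was not called (−0.21 ± 0.15). NOP7, the highest large subunit member per kb in wild type in glucose, had 259 CPM in the deletion in mannose and 258 and 237 CPM in the deletion in glucose, against 376 CPM in wild type in mannose and 365 and 359 CPM in wild type in glucose. It differed by strain (−0.55 ± 0.08 in glucose, edgeR adjusted p = 6.90e-10) and was not called for mannose in the deletion (0.06 ± 0.09) or in wild type (0.05 ± 0.09). With the GC and length trends taken out it was called higher for mannose in the deletion (0.33). NOP8, the lowest there, had 14.8 CPM in the deletion in mannose and 11.4 and 12.5 CPM in the deletion in glucose, against 18.4 CPM in wild type in mannose and 16.4 and 17.5 CPM in wild type in glucose. It fell in the deletion in glucose (−0.50 ± 0.11, edgeR adjusted p = 2.04e-05) and rose in mannose in the deletion (0.30 ± 0.14, edgeR adjusted p = 0.0435).

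The 4 snoRNP genes encode proteins of the particles that guide chemical changes of rRNA. All 4 were lower in the deletion than in wild type, in glucose (37.8% of all genes tested) and in mannose (41.1%). NOP56, a core protein of box C/D snoRNPs, had 196 CPM in the deletion in mannose and 429 and 404 CPM in the deletion in glucose, against 617 CPM in wild type in mannose and 614 and 577 CPM in wild type in glucose. NOP58, its partner, had 136 CPM in the deletion in mannose and 227 and 248 CPM in the deletion in glucose, against 392 CPM in wild type in mannose and 356 and 341 CPM in wild type in glucose. Both had the wild-type libraries highest, the deletion in glucose between and the deletion in mannose lowest. Their mannose changes in the deletion were −1.09 ± 0.10 and −0.80 ± 0.10 (edgeR adjusted p = 5.70e-17 and 5.77e-12), and neither was called in wild type, where NOP56 was called higher with the GC and length trends taken out (0.23). NOP1, for fibrillarin, fell in mannose in the deletion (−1.04 ± 0.10) and rose in wild type (0.24 ± 0.09), where it turned to −0.05, not called, with the GC and length trends taken out. NOP1 has the highest GC content of the members (47.5%). NOP10, of box H/ACA snoRNPs, fell in both strains, at −1.64 ± 0.13 in the deletion and −0.57 ± 0.11 in wild type.

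Exosome subunit genes did not move as one. Of the 7, the ring subunit genes RRP42, RRP43 and RRP45 and the cap subunit genes RRP4 and RRP40 fell in mannose in the deletion. Of all genes tested 39.7% fell there and 37.6% rose. The nuclear exonuclease gene RRP6 rose (0.24 ± 0.09), and the ring subunit gene RRP46 was not called in any comparison. RRP42, the highest of them per kb in wild type in glucose, had 13.4 CPM in the deletion in mannose and 38.1 and 36.2 CPM in the deletion in glucose, against 36.8 CPM in wild type in mannose and 48.0 and 46.4 CPM in wild type in glucose. RRP45, the lowest there, had 7.48 CPM in the deletion in mannose and 18.1 and 15.7 CPM in the deletion in glucose, against 25.2 CPM in wild type in mannose and 25.1 and 26.0 CPM in wild type in glucose. In both the deletion in mannose was the lowest library, with mannose changes of −1.47 ± 0.12 and −1.17 ± 0.15 (edgeR adjusted p = 2.94e-19 and 5.82e-11). RRP46 had 26.3 CPM in the deletion in mannose and 28.5 and 29.3 CPM in the deletion in glucose, against 22.7 CPM in wild type in mannose and 26.1 and 26.7 CPM in wild type in glucose. Its 6 libraries thus lay close together, and with the GC and length trends taken out it was called higher in the deletion in glucose (0.23) and in mannose (0.41), and lower in mannose in wild type (−0.29).

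RRP5 and RRP12 serve both subunits, and both fell in the deletion in glucose (37.8% of all genes tested) and in mannose (41.1%). RRP5 had 281 CPM in the deletion in mannose and 511 and 573 CPM in the deletion in glucose, against 604 CPM in wild type in mannose and 739.7 and 672 CPM in wild type in glucose. RRP12, for a protein of subunit export, had 101 CPM in the deletion in mannose and 160.2 and 186 CPM in the deletion in glucose, against 202 CPM in wild type in mannose and 262 and 236 CPM in wild type in glucose. Their mannose changes in the deletion were −0.95 ± 0.10 and −0.78 ± 0.10 (edgeR adjusted p = 6.08e-14 and 2.20e-11). NOP13, a nucleolar RNA-binding protein gene left without a role, had 46.6 CPM in the deletion in mannose and 68.4 and 69.6 CPM in the deletion in glucose, against 87.4 CPM in wild type in mannose and 88.8 and 86.9 CPM in wild type in glucose. Its wild-type libraries were alike in both sugars, and it fell in mannose in the deletion (−0.57 ± 0.10, edgeR adjusted p = 3.66e-07).

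The gap between the name classes, UTP median minus NOC, NOG, NSA and RLP median, was −0.05 in the deletion against wild type in glucose and −0.22 in mannose against glucose in wild type. It was −0.91 in mannose against glucose in the deletion, −0.65 between the strains in mannose and −0.55 in the difference of the mannose changes. These are descriptions without a test. Split by role over all members, small minus large, the gap for mannose in the deletion was −0.73, and −0.61 with the GC and length trends taken out. The other assembly genes of yeast did not show the same order. Of 41 other small subunit factors 24 fell and 10 rose for mannose in the deletion (median −0.31), and of 47 other large subunit factors 33 fell and 4 rose (median −0.50), where 39.7% of all genes tested fell and 37.6% rose. In these lists the large subunit factors had the lower median.

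**Figure D5:**
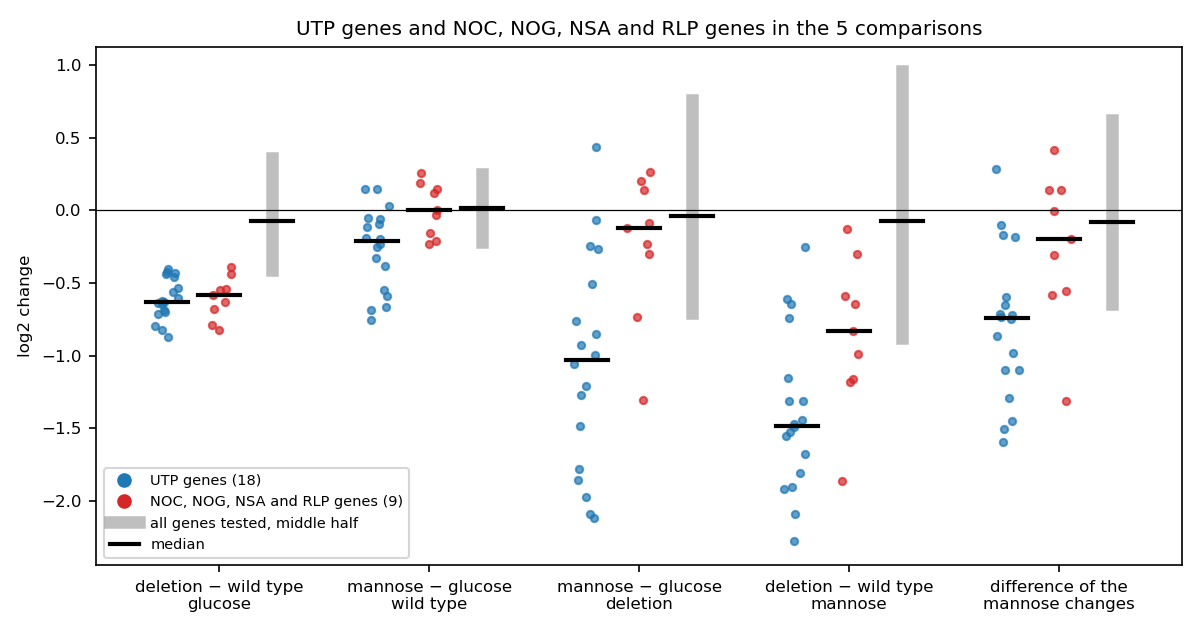
log2 change of the 18 UTP genes (blue) and the 9 NOC, NOG, NSA and RLP genes (red) in the 5 comparisons, 1 point per gene, with the median as a black line and the middle of the distribution of all genes tested (25th to 75th percentile) as a grey bar. The 2 classes overlap in every comparison, with medians close in glucose (−0.63 and −0.58) and apart for mannose in the deletion (−1.03 and −0.12).

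GC content moved with the changes in mannose. Over the 18 UTP genes Spearman's rho between GC content and the mannose change was 0.783 in the deletion and 0.771 in wild type, and over all 62 members it was 0.276 and 0.365. The points share libraries, so these are descriptions. With trends on GC content and coding length over all genes taken out of each library, rho over the UTP genes was 0.430 in the deletion and 0.162 in wild type. The UTP median for mannose in the deletion was then −1.07 and that of the NOC, NOG, NSA and RLP genes −0.13, close to the values without this step. Within UTP the medians moved from −1.63 to −1.21 for UTP-A and from −1.13 to −1.19 for UTP-B. The median of the other UTP genes moved from −0.84 to −0.54. By role the small subunit median moved from −0.85 to −0.60 and the large subunit median from −0.12 to 0.02. The UTP genes had a median GC content of 37.7% and a median coding length of 2037 bases, against 38.5% and 1461 bases for the NOC, NOG, NSA and RLP genes.

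Other genes of the pathway stood beside the members as follows. In the deletion in glucose 40 of 41 other small subunit factors, 44 of 47 other large subunit factors, 4 of 4 other snoRNP genes, 5 of 7 other exosome and cofactor genes and 12 of 16 genes of RNA polymerase I and its factors fell (37.8% of all genes tested), and 0 rose in any of these lists (30.1% of all genes tested). For mannose in the deletion the deepest falls among the large subunit factors were those of CIC1 (−2.09 ± 0.13) and URB2 (−2.04 ± 0.12), and RPF1 rose (1.06 ± 0.11). Among the small subunit factors EMG1 fell by 1.32 and NAN1 by 1.20 on the log2 scale, while SAS10 and RIO1 rose (both 1.40 ± 0.10). NAN1 encodes a UTP-A subunit that the name rule leaves out. Among RNA polymerase I genes 11 of 16 fell and 2 rose (39.7% and 37.6% of all genes tested), with RPA12 at −1.64 ± 0.18 and RRN5 at 1.00 ± 0.13. SNU13, of box C/D snoRNPs, fell by 2.14 on the log2 scale.

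Of 11 genes for known regulators of ribosome genes 5 rose and 3 fell in the deletion in glucose (30.1% and 37.8% of all genes tested). For mannose in the deletion 7 rose and 2 fell (37.6% and 39.7% of all genes tested). DOT6, for a repressor that binds PAC, had 937 CPM in the deletion in mannose and 265 and 256 CPM in the deletion in glucose, against 166 CPM in wild type in mannose and 124 and 137 CPM in wild type in glucose. It rose in the deletion in glucose (1.00 ± 0.08), in mannose in wild type (0.35 ± 0.09) and in mannose in the deletion (1.85 ± 0.09). STB3, for a repressor that binds RRPE, had 176 CPM in the deletion in mannose and 51.3 and 47.2 CPM in the deletion in glucose, against 41.4 CPM in wild type in mannose and 35.7 and 36.1 CPM in wild type in glucose, and it rose in mannose in the deletion (1.84 ± 0.09). TOD6, the other repressor that binds PAC, was added after its values were seen. It had 63.3 CPM in the deletion in mannose and 42.2 and 41.7 CPM in the deletion in glucose, against 39.0 CPM in wild type in mannose and 40.5 and 41.3 CPM in wild type in glucose. It rose in mannose in the deletion (0.59 ± 0.10) and was not called in the deletion in glucose (0.04 ± 0.08). SFP1, for an activator, fell in the deletion in glucose (−0.58 ± 0.08) and in mannose in the deletion (−0.44 ± 0.11). DOT6 and STB3 were highest in the deletion in mannose, and the share of all genes highest there was not counted. That library was the lowest for 46 of the 62 members and for 41.5% of all genes tested. For mannose in the deletion the medians of members with both motifs, with one of them and with neither were −0.57, −0.63 and −0.76. With the GC and length trends taken out they were −0.60, −0.46 and −0.70. The 7 members without either motif had the lowest median, but the classes overlapped. Without that step their 25th to 75th percentiles ran from −1.08 to −0.44, within the −1.27 to 0.06 of the 29 members with both. Whether these regulators have a part in the members' levels was not tested.

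Members neighbour each other or another assembly gene in 6 places. RRP15 and NOC4 lie end to end on chromosome XVI, 689 bases apart and converging. Both had a mannose change that was higher in the deletion than in wild type (0.65 ± 0.16 and 0.41 ± 0.15, edgeR adjusted p = 2.35e-04 and 0.0103). Of all genes tested 29.7% were called higher in this way. The changes of the other pairs were not set side by side, so nothing is said here on neighbours in general. These pairs are NSA2 with LCP5 and RRP3 with SSF1, which diverge, and UTP9 with RIX1, UTP13 with RSA3 and NOG2 with ESF2, which lie in tandem. No member had a near-identical copy elsewhere in the genome (at least 95% identity over 80% of the length).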

How the data were processed

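RNA was extracted as total RNA, depleted of ribosomal RNA with Ribo-Zero Gold and sequenced from stranded TruSeq libraries, per the labels' protocols. The deposited table of each library gives raw counts per open reading frame, without a header, and a length that was not used. The submitters' processing notes name Bowtie2 2.3.4.2, TopHat2 2.0.9 and CASAVA 1.8 as tools and sacCer3 as the build. The sources used here do not give the counter, its annotation, or how strand and multiply mapping reads were treated. All columns of counts were mapped to samples, leaving 0 out.

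Names, coordinates and promoters are from RefSeq R64 (matched by systematic name). The 688 open reading frames without an entry there held 0.206% to 0.624% of the counts of a library and were kept. The test was that of edgeR 4.0.16 (R 4.3.3): low-count filter by filterByExpr (550 left out, 6146 tested), TMM factors, 1 mean per group over all 6 libraries, and the quasi-likelihood test with Benjamini-Hochberg adjustment over all genes tested, called under 0.05. There were 2 residual degrees of freedom, beside 86.7 prior ones, and the common biological coefficient of variation was 5.54%. The SE is the log2 change divided by the root of F. Counts of the replicate pairs differed by more than sampling noise (chi-square per degree of freedom 23.9 in the deletion and 11.8 in wild type), so each counted as a library. The fitting code was tested on simulated data with known changes.

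Full values were given for the 4 called members with the largest change in each comparison, every NOC, NOG, NSA and RLP gene, and the highest and lowest member per kb in each role. The members were taken by the name rule on the R64 annotation, and the roles and the other gene lists come from general knowledge of yeast. Rule, roles and lists were chosen with earlier results of these data known. Alternatives were DESeq2 1.42.0 and its size factors, upper-quartile factors, no filter, GC content and length trends removed, only the libraries compared, a fixed variation of 0.2, a replicate block and leaving out each glucose library. Near copies were sought with BLAST 2.17.0, at 95% identity over 80% of the length. Motifs were matched exactly on both strands with Python 3.11.15. Protein identity between RLP and RPL genes was not analysed here.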

Additional observations from a re-analysis of the deposited data

Results flagged for a closer look

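The change in mannose was compared between the strains by edgeR's quasi-likelihood test of the difference itself. It was lower in the deletion than in wild type for 38 of 62 members and higher for 5. Over all genes tested 34.4% were called lower and 29.7% higher, so a call in itself was common. With an assumed coefficient of variation of 0.2 most of the members' calls were lost. With that setting 264 of all 6146 genes tested were lower and 554 higher. The values below are the log2 mannose change in the deletion minus that in wild type, for the called genes whose values stand in full above under the rule for such values. In the UTP-A complex UTP9 stood at −1.60, UTP4 at −1.29, UTP8 and UTP10 both at −1.10 and UTP15 at −0.73. UTP6 of UTP-B was at −1.45 and UTP22 of UTP-C at −1.50, while UTP20 and UTP30 were at −0.72 and −0.60. In the large subunit RRP1 was at −1.44, RLP7 at −1.31, NOC3 at −0.58, RLP24 at −0.56, RRP8 at −0.46 and NOG1 at −0.31. The snoRNP genes NOP56 and NOP58 were at −1.14 and −0.97, and the exosome genes RRP45 and RRP42 at −1.15 and −1.11. RRP5 and RRP12, which serve both subunits, were at −0.72 and −0.47, and NOP13 at −0.56. NOC4 of the small subunit was the one in this set with a positive difference, at 0.41. With GC content and length trends removed UTP30 (−0.24) and RRP8 (−0.15) were not called. No group holds more than 2 libraries, so single libraries were not screened against their group.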

How the results depend on the processing

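Log2 changes below are deletion against wild type in glucose (A), mannose against glucose in wild type (B) and in the deletion (C), deletion against wild type in mannose (D) and the mannose change in the deletion minus that in wild type (E). In A, 1 member was higher with DESeq2 size factors, with GC content and length trends removed, with only the libraries compared, and with the replicate block plus trends removed, and 9 were lower with a fixed variation of 0.2. The median in A was −0.49 with DESeq2, with its size factors, with only the libraries compared and with the replicate block, −0.47 with trends removed, −0.46 with the block plus trends removed and −0.63 with upper-quartile factors. The replicate block (4 glucose libraries) left 0 higher and 57 lower. Same-numbered replicates did not deviate together (r = −0.0463 across genes), so the numbers were not taken as pairs.

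In B, DESeq2 called 3 higher and 9 lower, removal of trends 8 in each direction, and the fixed variation 0 in either direction. The median was −0.034 with DESeq2, −0.035 with its size factors and −0.0022 with trends removed. In C, 15 were higher with trends removed, 6 with DESeq2, 3 with upper-quartile factors and 1 with the fixed variation, which called 24 lower. The median was −0.60 with trends removed and −0.97 with upper-quartile factors. The gap between the classes was −0.73 by role. In D, 4 were higher with trends removed and 0 with the fixed variation or upper-quartile factors, and 35 were lower with the fixed variation. The median was −1.10 with DESeq2, −1.09 with its size factors, −0.97 with trends removed, −1.17 without the filter and −1.47 with upper-quartile factors. The gap was −0.57 with trends removed and −0.48 by role. In E, 7 were higher with trends removed, 2 with DESeq2 or upper-quartile factors, and the fixed variation called 0 higher and 4 lower. The median was −0.51 with trends removed, −0.59 without the filter and −0.82 with upper-quartile factors, and the gap −0.66 with trends removed.

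Over all 6146 genes tested the fixed variation called 953 higher and 538 lower in A, and 84 and 65 in B. It called 1380 and 1116 in C, 1494 and 1326 in D, and 554 and 264 in E. Upper-quartile factors called 1646 higher and 2694 lower in A, and 1822 and 3051 in C. They called 1852 and 3141 in D, and 1387 and 2820 in E. These factors moved the median over all genes to −0.15 in A, −0.30 in C, −0.39 in D and −0.32 in E. With trends removed, 5828 genes were tested, of which 2065 were higher and 1923 lower in A, and 1079 and 920 in B. The counts were 2129 and 2444 in C, 2337 and 2343 in D, and 1696 and 2169 in E. With trends removed the sign turned in B for NOP1 (−0.050), NOP53 (0.17) and UTP9 (0.040). It turned in C for NOC2 (0.30), NOP53 (0.28), RLP24 (0.018) and RRP8 (0.29) and in D for RRP15 (0.27). With upper-quartile factors it turned in C for NOP14 (−0.044) and RRP6 (−0.018). Where a value moved, the cause was not tested. Of 3410 single-gene values under alternatives 3032 kept direction and side of the threshold.

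Leaving out each glucose library in turn gave 0 to 1 higher and 56 to 58 lower in A, 1 to 7 and 8 to 22 in B, 7 to 10 and 39 to 44 in C, 1 to 1 and 52 to 55 in D, and 3 to 6 and 35 to 43 in E. The medians ran from −0.57 to −0.48, −0.06 to −0.05, −0.76 to −0.68, −1.15 to −1.14 and −0.64 to −0.56, and the gaps from −0.064 to 0.033, −0.27 to −0.22, −0.96 to −0.85, −0.65 to −0.65 and −0.60 to −0.55, each in the order A to E. No called member changed sign. With motifs shortened by 1 base, GATGAG stood in 83.9% of members and 20.4% of all promoters, and AAAATTT in 90.3% and 23.2%. Every member had at least 109 counts in each library, and B to E rest on 1 mannose library per strain.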
